A study of Rattus norvegicus with 2 samples.

Results

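A set of 10 genes of local blood flow control was followed in rat skeletal muscle after fine needle stimulation. They were fixed by symbol and comprised the nitric oxide synthases Nos1 and Nos3, the nitric oxide receptor subunits Gucy1a1 and Gucy1b1, the endothelin ligand Edn1 with its receptors Ednra and Ednrb, and the prostanoid enzymes Ptgs1, Ptgs2 and Ptgis. Of these 10, 8 were matched to 11 probe sets that carry a single gene symbol, and 6 were measured, out of 9956 measured genes in all. The stimulated sample was adductor muscle of the left hindlimb of male Lewis rats of 275 g body weight, taken 24 hours after 100 pricks from a stainless steel needle of 0.14 mm diameter, spread over a field of 10 mm by 10 mm. The control sample was adductor muscle of the right hindlimb, which was not pricked. Neither the number of rats nor the pairing of the limbs within a rat is given in the labels, and the unpricked limb is the only control, so any effect that reaches both limbs is not seen. With 1 array for each limb, the values have no replicate error and no difference was tested.

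Nitric oxide is made from arginine by the synthases, of which Nos3 is the endothelial form and Nos1 the neuronal form, which is also bound to the membrane of muscle fibres. It activates soluble guanylyl cyclase, a dimer of the Gucy1a1 and Gucy1b1 products, and the cyclic GMP formed relaxes vascular smooth muscle. Endothelin 1, the peptide encoded by Edn1, is released mainly by endothelium and constricts vessels. Cyclooxygenases, encoded by Ptgs1 and Ptgs2, form prostaglandin H2, which Ptgis turns into prostacyclin, a dilator that also restrains platelets.

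The promoters of Nos3, Edn1 and Ptgs1 are shown because these are the measured members outside the cyclase whose promoter was matched. Sequences are the 250 bases before the annotated start, from RefSeq on the rat assembly GRCr8, at chr4:11706582-11706831 on the minus strand for Nos3, chr17:22666688-22666937 on the minus strand for Edn1 and chr3:39981169-39981418 on the plus strand for Ptgs1. Capitals mark matches, on either strand, to CACCC, the core bound by Krüppel-like factors, GATAA, that of GATA factors, or ACGTG, that of hypoxia-inducible factors.
Nos3: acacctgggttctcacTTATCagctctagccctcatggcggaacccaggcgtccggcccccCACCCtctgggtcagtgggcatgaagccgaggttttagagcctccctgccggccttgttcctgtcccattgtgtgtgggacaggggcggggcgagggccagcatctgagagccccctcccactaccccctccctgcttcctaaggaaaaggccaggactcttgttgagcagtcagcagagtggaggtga
Edn1: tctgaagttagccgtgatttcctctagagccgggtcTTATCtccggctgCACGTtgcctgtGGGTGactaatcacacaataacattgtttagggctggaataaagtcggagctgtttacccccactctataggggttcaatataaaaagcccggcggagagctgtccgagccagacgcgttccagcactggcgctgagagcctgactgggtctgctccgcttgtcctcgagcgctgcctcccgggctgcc
Ptgs1: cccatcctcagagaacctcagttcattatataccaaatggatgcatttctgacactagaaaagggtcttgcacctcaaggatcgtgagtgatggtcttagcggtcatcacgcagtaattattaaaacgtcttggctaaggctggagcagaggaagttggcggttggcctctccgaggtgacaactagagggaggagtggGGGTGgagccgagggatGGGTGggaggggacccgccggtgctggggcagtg
No marked match overlaps another in these 3 sequences. CACCC lay 189 to 185 bases before the start in both Nos3 and Edn1, on opposite strands, and in Ptgs1 it occurred at 51 to 47 and at 34 to 30 bases before the start. GATAA was found in Nos3 and Edn1 alone among the 9 matched promoters of members, and ACGTG in Edn1, Nos1 and Ptgs2. Among all 33469 promoters of the same length, 49.2% held CACCC, 23.5% GATAA and 16.6% ACGTG, and CACCC was held by 6 of the 9 promoters of members. Of the other letters searched on both strands, TGANTCA (6.34% of all promoters) and TGACGTCA (1.59%) occurred in Nos1, while CCGGAA (12.6%) and single spellings of the NF-kappa-B site (0.0956%) and of the serum response element (0.0299%) occurred in no promoter of a member. A match is a run of letters and not evidence of binding.

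Signals are linear intensities made by the authors with MAS5, the array manufacturer's algorithm. A floor of 19.8, the median of all signals on both arrays, was set before taking log2 ratios of stimulated over control. Genes that reached it on 1 or both arrays count as measured, and where the other array lay below it the fold is a lower bound, written as "at least". The stimulated array had 48.9% and the control array 51.1% of probe sets at or above the floor. The beta-actin control, which compares both ends of a transcript to gauge RNA integrity, gave a 3' to 5' ratio of 2.43 in the stimulated sample, against 2.26 in the control. Probe sets of the same gene were the only repeat measurement. For 2174 genes, 2 probe sets were above the floor on both arrays, and only these were used, so the spread of signals below it was not measured. In the dimmest 724 of them, those with a mean signal of up to 44.0 for the dimmer probe set, a single probe set's log2 ratio had an SD of 0.37, which is 1.30-fold and leaves out variation between limbs and animals. All 18 hybridisation spike-ins were lower on the stimulated array, and scaling to them moved the median gene by 0.39 on the log2 scale, so directions below are relative to the median gene. Skeletal muscle markers, with 14 of 14 annotated genes measured, had signals from 2010 to 12095 in the stimulated limb and from 1007 to 16712 in the control limb, so the defining genes of the labelled tissue were present. Of these 14, 11 lay below and 3 above a log2 ratio of 0. Their median was -0.42, and -0.0075 with quantile normalization.

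Prostacyclin synthase was the member with the largest difference, being at least 3.29-fold lower in the stimulated limb. For the endothelial synthase Nos3 the bound was 1.58-fold lower, and for Edn1 it was 1.28-fold lower. Cyclooxygenase 1 (Ptgs1) was 1.67-fold higher, and the subunits of the nitric oxide receptor gave no common direction. Of the 6 measured members, 1 was lower by 2-fold or more, as were 1.43% of all measured genes, and 0 were higher by that much, against another 1.43% of all genes. At a 1.5-fold difference 2 members were lower and 1 was higher, against 6.94% and 6.59% of all genes. In all, 4 of the 6 lay below a log2 ratio of 0, against 47.7% of all genes, and their median was -0.36, against 0.019 over all genes. The overall counts were 142 higher and 142 lower genes, and with scaling to the spike-ins, not taken relative to the median gene, 535 higher and 44 lower.

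**Figure D1:**
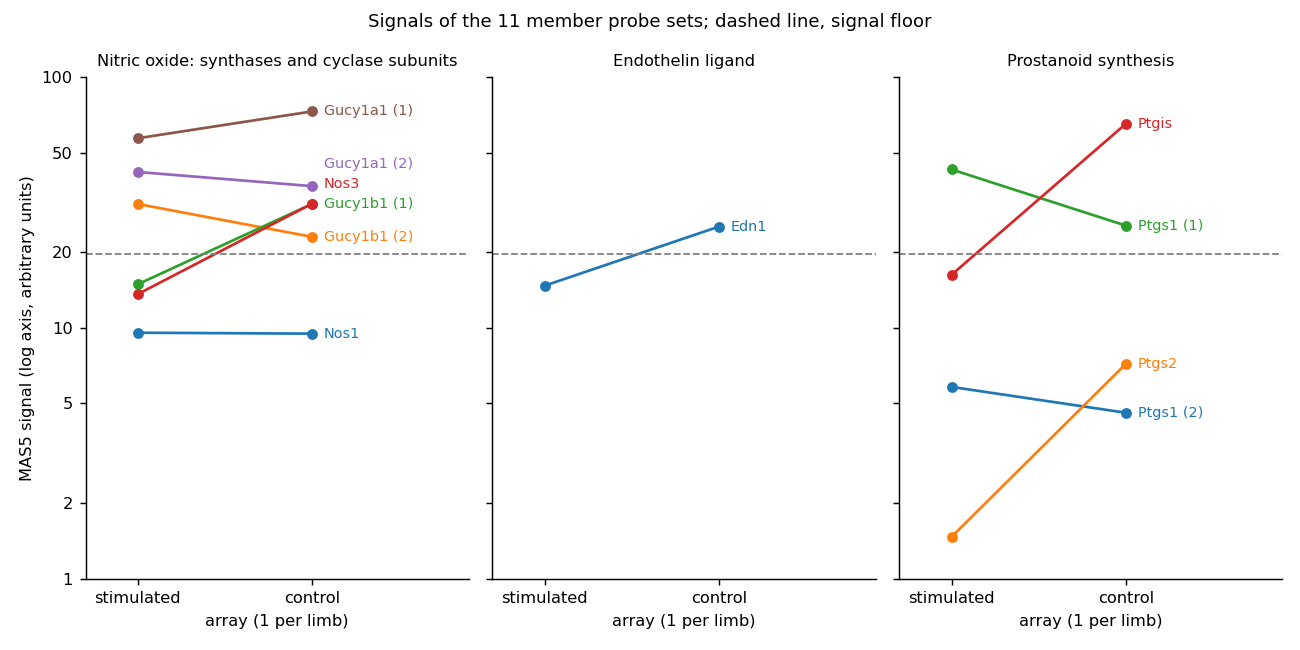
MAS5 signal on a log axis for each of the 11 member probe sets in the stimulated (left) and control (right) sample, 1 point per array, with a number in brackets where a gene has 2 probe sets. The dashed line is the floor of 19.8, below which signals have no order. Ptgis, Nos3, Edn1 and Gucy1b1 (1) cross it, above in the control and below in the stimulated sample.

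Ptgis, Nos3 and Edn1 were above the floor in the control limb and below it in the stimulated limb, as were 5.79% of all measured genes. None of the 6 measured members showed the opposite state, which 3.87% of all genes did. The other 3 measured members were above the floor on both arrays, as were 90.3% of all genes. The members were thus dim: their signals, for the probe set that represents each gene, ran from 13.6 to 57.1 in the stimulated limb and from 23.1 to 73.0 in the control limb.

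Of the nitric oxide synthases, Nos3 (Entrez gene 24600) had a signal of 13.6 in the stimulated limb, against 31.3 in the control limb. The stimulated signal was below the floor, and the difference was at least 1.58-fold, a log2 ratio of -0.66 or lower. The bound is 1.77 times the SD of a dim probe set, but that SD does not cover signals below the floor. Of all measured genes, 5.03% had a log2 ratio or bound at or below that of Nos3. Nos1 (Entrez gene 24598) had 9.57 in the stimulated and 9.49 in the control limb, both below the floor, so no fold is given and a difference in this synthase could have been missed. The inducible synthase Nos2, which is no member, had 23.8 in the stimulated and 41.3 in the control limb and was 1.74-fold lower. Its signals were close to the floor, and a further probe set, annotated to Nos2 and a pseudogene together, was not used here. Neither of the 2 measured synthases was higher in the stimulated limb.

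The cyclase subunits were each covered by 2 probe sets, and those disagreed. For Gucy1a1 (Entrez gene 497757) the first probe set had 57.1 in the stimulated and 73.0 in the control limb, a log2 ratio of -0.36. The second had 41.9 in the stimulated and 36.8 in the control limb, a log2 ratio of 0.19. Both differences were smaller than the SD of a dim probe set. For Gucy1b1 (Entrez gene 25202) the first probe set had 14.9, below the floor, in the stimulated and 31.2 in the control limb, at least 1.58-fold lower. The second, which represents the gene here because it is brighter, had 31.2 in the stimulated and 23.1 in the control limb and was 1.35-fold higher. The 2 Gucy1b1 probe sets lay on opposite sides of 0, with a gap of at least 1.09 between their log2 ratios. Those of Gucy1a1 did so too, with a gap of 0.54, so no direction is given for either subunit. The subunits form an obligate dimer, and their genes lie on chromosome 2 with 1 annotated gene between them.

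**Figure D2:**
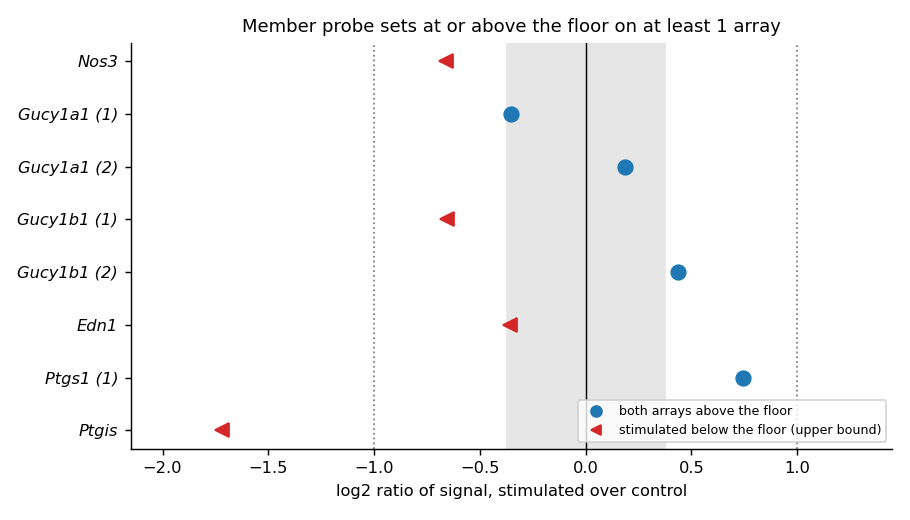
Log2 ratio of signal, stimulated over control, for the 8 member probe sets at or above the floor on at least 1 array. Circles were above the floor on both arrays, and triangles are upper bounds of the ratio because the stimulated signal was below the floor. The grey band is 1 SD of a dim probe set (0.37), measured above the floor only, on each side of 0, and dotted lines mark a 2-fold difference. Ptgis alone lies beyond a dotted line, and both cyclase subunits have a probe set on each side of 0.

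Around the synthases, genes that supply or limit nitric oxide went both ways. Of 23 genes listed, 17 were measured, with 8 above and 9 below a log2 ratio of 0, none beyond 2-fold, and a median of -0.057. Arg1 (arginase 1, which competes for arginine) was 1.81-fold higher, at 38.7 in the stimulated and 21.3, close to the floor, in the control limb. Nostrin, a protein that binds Nos3 and draws it off the plasma membrane, was 1.65-fold lower, at 28.8 in the stimulated and 47.6 in the control limb. Pts, an enzyme of the synthesis of the cofactor tetrahydrobiopterin, was 1.38-fold higher. The caveolin genes, whose products bind and restrain the synthases, hardly differed, with Cav1 at a log2 ratio of -0.062 and Cav3 at 0.040, although another Cav1 probe set was at -0.51.

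Of 24 listed genes of cyclic GMP signalling, 11 were measured. They had a median log2 ratio of 0.15, with 7 above and 4 below 0. The potassium channel gene Kcnma1, whose product is opened through cyclic GMP-dependent kinase in smooth muscle, was 2.23-fold higher. It had 82.8 in the stimulated and 37.0 in the control limb, and was the only gene of the list beyond 2-fold. Its other probe sets, of 3 in all, were below the floor on both arrays. Npr1, the natriuretic peptide receptor that makes cyclic GMP itself, was 1.94-fold lower, with 19.8 in the stimulated limb, at the floor, and 38.5 in the control limb. Pln, which encodes the calcium pump regulator phospholamban, had probe sets at 0.67 and -0.55. Nppb, a natriuretic peptide gene, was at least 1.27-fold higher. The phosphodiesterase gene Pde5a was below the floor on both arrays.

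Edn1 (Entrez gene 24323) had a signal of 14.7, below the floor, in the stimulated limb and of 25.3 in the control limb. The difference was at least 1.28-fold, a log2 ratio of -0.36 or lower. The size beyond that bound is not known, and with a lower floor, at the 25th percentile of signals, the log2 ratio was -0.78. Ednra, the receptor of smooth muscle, and Ednrb, the receptor of endothelium, were not analysed here. Of 21 listed genes that process endothelin or carry its signal, 15 were measured, with 6 above and 9 below 0 and a median log2 ratio of -0.12. Gna11, a G protein of the Gq class through which endothelin receptors act, was 2.33-fold lower and was the only one beyond 2-fold. Its signal was 22.7, close to the floor, in the stimulated and 52.7 in the control limb. Ece1, which cleaves the endothelin precursor, was 1.30-fold lower, at 129 in the stimulated and 167 in the control limb. The kinase gene Rock2 had a log2 ratio of -0.28, with its other 3 probe sets also below 0, and Rgs4, an inhibitor of G protein signalling, one of 0.23.

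Of the prostanoid enzymes among the members, Ptgis was lower and Ptgs1 higher. Ptgis (Entrez gene 25527) had a signal of 16.3 in the stimulated limb, against 65.1 in the control limb. The stimulated signal was below the floor, and the log2 ratio was -1.72 or lower. The bound is 4.60 times the SD of a dim probe set, but that SD does not cover signals below the floor. Of all 9956 measured genes, 0.161% had a log2 ratio or bound at or below that of Ptgis. Ptgis was covered by 1 probe set, so no second probe set bears on it.

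Of the cyclooxygenase genes, only Ptgs1 was measured. Ptgs1 (Entrez gene 24693) had 42.8 in the stimulated and 25.6 in the control limb, both above the floor but close to it. Its log2 ratio of 0.74 was 1.99 times the SD of a dim probe set, and it was 0.50 with a pseudocount of 16 and no floor. Of all measured genes, 96.5% had a log2 ratio at or below 0.74. The second Ptgs1 probe set, at 5.82 in the stimulated and 4.59 in the control limb, was below the floor on both arrays and does not bear on the difference. Ptgs2 (Entrez gene 29527), the inducible form, had 1.47 in the stimulated and 7.19 in the control limb, both below the floor, so no fold is given.

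Other genes of prostanoid synthesis and transport were spread as widely. Of 18 listed, 16 were measured, with 9 above and 7 below 0 and a median log2 ratio of 0.028, close to that of all genes. The secreted phospholipase gene Pla2g2a, which releases fatty acids from membranes, was 6.43-fold lower, at 39.0 in the stimulated and 251 in the control limb. Slco2a1, the prostaglandin uptake carrier, was at least 2.96-fold lower, at 10.9, below the floor, in the stimulated and 58.5 in the control limb. A further Slco2a1 probe set, at -1.25, lay on the same side. Abcc4, an exporter of prostaglandins and cyclic nucleotides, was 1.72-fold lower. Tbxas1, the thromboxane synthase, which takes the same substrate as Ptgis and makes a vasoconstrictor, was 2.40-fold higher, at 150 in the stimulated and 62.4 in the control limb. Hpgds, a prostaglandin D synthase that also takes this substrate, was at least 1.60-fold higher, at 31.6 in the stimulated and 18.2, below the floor, in the control limb. Ptges, which makes prostaglandin E2, was 1.20-fold lower. Of 10 genes on the prostanoid receptor list, only 3 were measured. Ptgfrn, whose product regulates a prostanoid receptor and is not one itself, had a log2 ratio of -0.31. It alone of the 3 was above the floor on both arrays. The receptor genes Ptger3 and Ptger4 were at least 1.12-fold and at least 1.09-fold lower. Their control signals, 22.2 and 21.5, were close to the floor, and their stimulated signals, 9.79 and 2.04, did not reach it.

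**Figure D3:**
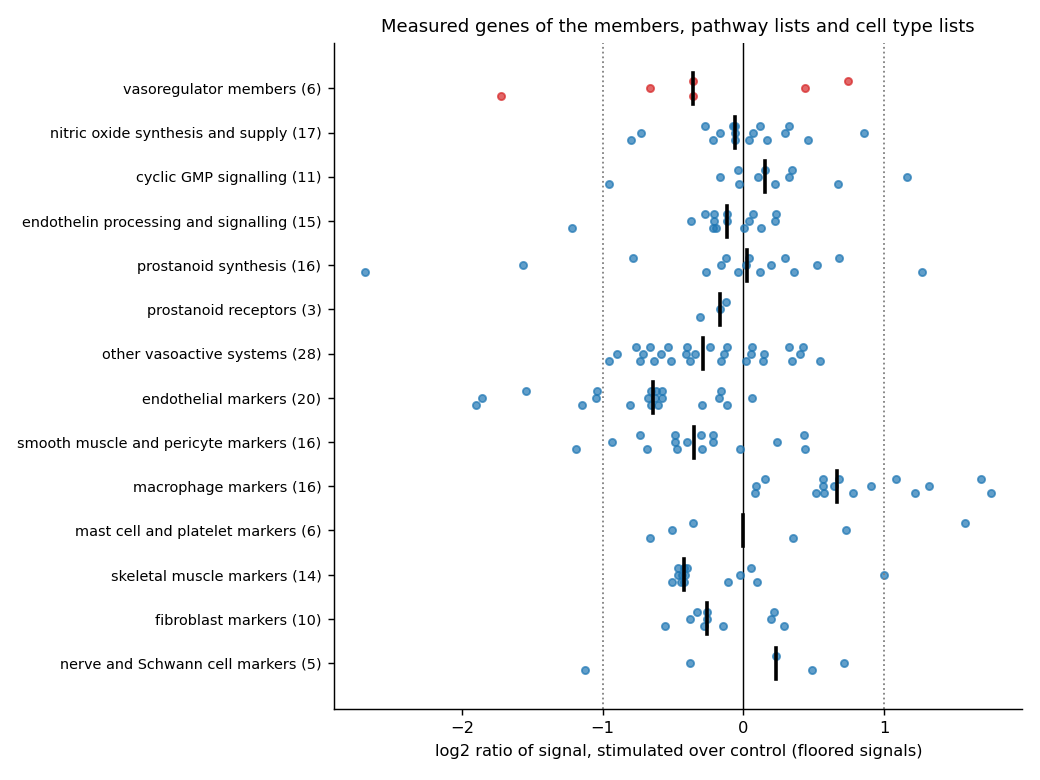
Log2 ratio of floored signals, stimulated over control, for each measured gene of the members (red) and of 13 gene lists (blue), with the number of measured genes in brackets. Black bars are medians and dotted lines mark a 2-fold difference. The members' median of -0.36 lies between those of the endothelial markers (-0.64) and of the nitric oxide supply genes (-0.057), and macrophage markers all lie above 0.

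Ptgis, Nos3, Edn1 and Slco2a1 are expressed by endothelium among other cells, and endothelial markers were lower in the same sample. Of 22 endothelial markers, 20 were measured and 19 lay below 0, with a median log2 ratio of -0.64. Of these, 6 were lower by 2-fold or more, led by Procr (3.74-fold lower) and Plvap (3.62-fold lower), and 0 were higher by as much. Their signals summed to 1641 in the stimulated and 2880 in the control limb, and none was listed at 0, the lowest being Sele at 0.112 in the stimulated limb. Of the 20, 2 had a lower log2 ratio than the bound of Ptgis, 8 than that of Nos3 and 15 than that of Edn1. Smooth muscle and pericyte markers had 13 of 16 measured genes below 0 and a median of -0.35, with Acta2, smooth muscle actin, 2.28-fold lower. Signals of the 16 summed to 4489 (stimulated) and 5954 (control). Synpo2 alone made up 2490 of the first sum and 3054 of the second, so these sums mostly follow 1 gene of the list. The part of either cell type in the lower members was not tested. In a tissue sample, fewer cells of a type and less RNA per cell cannot be told apart.

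Ptgs1, Tbxas1 and Hpgds are expressed by macrophages, mast cells or platelets among other cells. All 16 macrophage markers lay above 0, with a median log2 ratio of 0.66, and 5 of them were at least 2-fold higher. Their signals summed to 11518 in the stimulated and 6628 in the control limb, and none was below the floor on either array. Lyz2 alone made up 5096 of the first sum and 3449 of the second. Mast cell and platelet markers, with 6 of 11 measured, had a median of -0.0038, with 3 above and 3 below 0. The sign of that median differed between settings (0.35 over 3 genes with the floor at the 75th percentile, -0.14 with a pseudocount of 16 and no floor). Tpsab1, a mast cell tryptase, was 2.97-fold higher and Pf4, a platelet chemokine, 1.66-fold higher. The control signal of Tpsab1, 22.9, was close to the floor. The mast cell genes Cpa3 and Tpsb2 were 1.59-fold and 1.42-fold lower. Signals of the 6 measured markers summed to 868 in the stimulated and 656 in the control limb, and none was listed at 0. Pf4 alone made up 570 of the first sum and 343 of the second, so these sums mostly follow Pf4. The part of these cells in the higher signals of Ptgs1, Tbxas1 and Hpgds was not tested.

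Other vasoactive systems had more genes below than above 0. Of 54 listed genes, 28 were measured, with 18 below and 10 above 0 and a median log2 ratio of -0.29. That median was -0.067 with a pseudocount of 16 and no floor (48 genes) and -0.099 with the floor at the 75th percentile (13 genes). None was beyond 2-fold, but 8 of the 28 were lower by 1.5-fold or more and 0 were higher by as much, against 6.94% and 6.59% of all genes. The 8 included receptors for several mediators: Adra2a for noradrenaline (at least 1.94-fold lower), Npy1r for neuropeptide Y (1.86-fold), Aplnr for apelin (1.70-fold, its other probe set being at -1.19) and Adora2a for adenosine (10.4, below the floor, in the stimulated and 29.7 in the control limb). Calcrl and Ramp2, which together form the adrenomedullin receptor, were at least 1.59-fold and 1.64-fold lower, though a second Calcrl probe set was at 0.12. The others were the angiotensin precursor gene Agt, at least 1.66-fold lower, and Ephx2, which degrades dilator epoxides of arachidonic acid, 1.56-fold lower. The directions of Adra2a, Agt, Calcrl and Adora2a rest on stimulated signals below the floor.

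**Figure D4:**
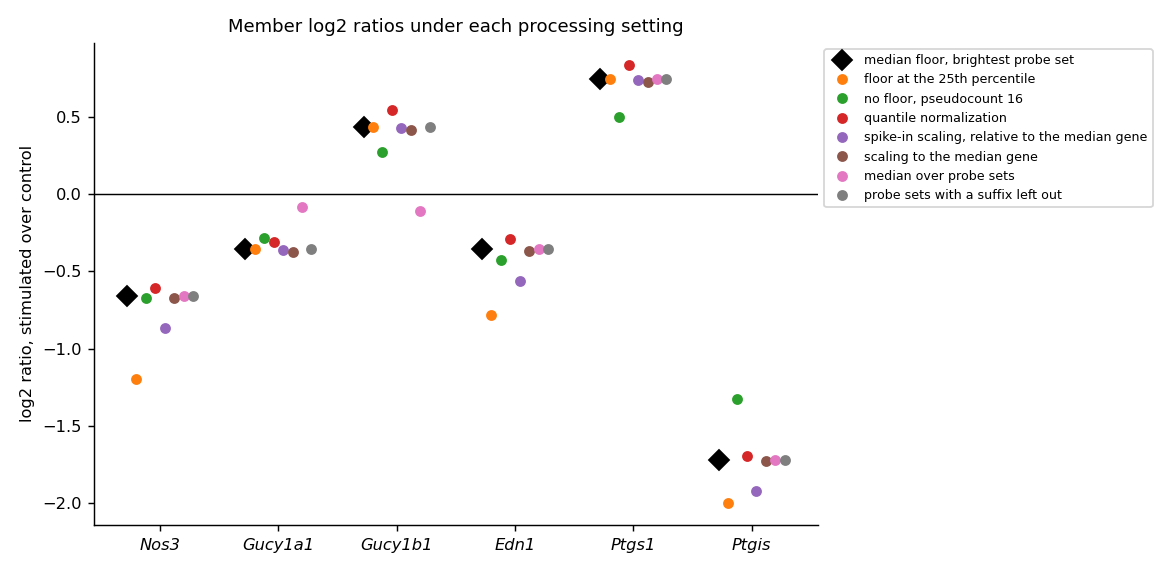
Log2 ratio, stimulated over control, of the 6 measured members under the setting used above (black diamonds) and 7 alternatives (coloured circles). Ptgis lies below -1 under each setting shown, from -2.00 to -1.33, Ptgs1 lies above 0 under each, and Gucy1b1 changes side with the median over its probe sets, at -0.11.

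For Ptgis, Nos3, Edn1, Gucy1a1 and Ptgs1, the sign of the log2 ratio was the same under the 7 alternatives that gave a value. For Gucy1b1 it was not. No direction is given for Gucy1a1, because its 2 probe sets lay on opposite sides of 0, at -0.36 and 0.19. Not every alternative could move a member's value, as described below. For Ptgis, Nos3 and Edn1, the size rests on where the floor is set, since the stimulated signal was below it. With scaling to the spike-ins and without reference to the median gene, Gucy1a1 had a log2 ratio of 0.029, on the other side of 0, and Ptgs1 one of 1.13, past 2-fold. List medians moved above 0 for nitric oxide supply (0.32), endothelin (0.26), the prostanoid receptor list (0.078, over 1 gene) and other vasoactive systems (0.14). The same held for fibroblast (0.12) and for mast cell and platelet markers (0.31). Medians of endothelial (-0.27), smooth muscle and pericyte (-0.053) and skeletal muscle markers (-0.035) stayed below 0.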

How the data were processed

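Total RNA was the material extracted from each muscle sample and biotin was the label, with 1 Affymetrix array per sample. The authors deposited 1 linear signal intensity per probe set and array, made with MAS5 per the submitters' processing notes. For the software version and the scaling target, the sources used here name none, and detection calls were not used here. Depth has no meaning for arrays, and their number, 1 per group, limits the precision.

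Of 31099 probe sets, 57 controls were left out. Platform annotation gave 1 symbol to 20832 probe sets and several to 436, which were not used, and 9780 had no gene listed. Gene identifiers of 20764 were found in RefSeq (GRCr8), and 0 symbols changed. Signals below the floor were raised to it before log2, and each gene was represented by the brightest of its measured probe sets, by mean log2 signal. The SD of a single probe set is that of the difference between the log2 ratios of a gene's 2 brightest probe sets, divided by the square root of 2. Counts use a 2-fold difference, without p-values. Protein identity between paralogous members, listed in the design, was not analysed here. Counting was tested on simulated data. Python 3.11.15 and pandas 2.3.3 were used.

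Members and gene lists were chosen with earlier results of these data known. Named genes were the members, up to 4 genes with the largest absolute ratio per list and those beyond 2-fold. The others (Cav1, Cav3, Pde5a, Hpgds, Ptges, Calcrl, Ramp2, Adora2a, Ephx2, Sele, Lyz2 and Synpo2) were chosen after their values were seen.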

Additional observations from a re-analysis of the deposited data

How the results depend on the processing

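Each value was recomputed under 8 alternatives for the floor, the scaling and the choice of probe set. Values under spike-in scaling were taken relative to the median gene. Of 183 recomputed values, 171 moved by less than the SD of a dim probe set or, for counts, by less than 1.5 times. Some of these could not move. Nos3, Edn1, Ptgis and Ptgs1 each had 1 measured probe set, so the choice of probe set left their values unchanged. Scaling to the median gene shifted values little, since that gene lay at 0.019. The number 171 thus overstates how far the values were put to a test. With the floor at the 25th percentile (5.78), Nos3 was at -1.20 and Edn1 at -0.78, 2 members were at least 2-fold lower, 474 genes were higher and 596 lower, and the nerve list was at -0.38. In that setting, Nos1 and Ptgs2 were also measured, at 0.012 and -0.31. With the floor at the 75th percentile (76.5) no member was measured, 52 genes were higher and 49 lower, and the nerve list was again at -0.38. With a pseudocount of 16, Ptgis was at -1.33. With quantile normalization the skeletal muscle list was at -0.0075. With the median over probe sets Gucy1b1 was at -0.11. No paired analysis was possible because each group has 1 array. Signals near the background limit every statement on Nos1, Ptgs2 and the stimulated signals of Nos3, Edn1 and Ptgis. The control signal of Ptgs1 was also close to the floor.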

Other observations

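Cells that could also hold these genes were described by 2 further lists. Nerve and Schwann cell markers had 5 of 10 genes measured, with 3 above and 2 below 0 and a median log2 ratio of 0.23, which was -0.38 with the floor at the 25th or the 75th percentile. Mbp, a myelin protein gene, was 2.18-fold lower, at 80.7 in the stimulated and 176 in the control limb, and its other 2 probe sets were lower as well, at -0.37 and -0.74. Ncam1, a cell adhesion gene that denervated muscle fibres also express, was 1.64-fold higher, at 43.0 in the stimulated and 26.2 in the control limb, and Prx, a myelin gene, 1.40-fold higher. Fibroblast markers, with 10 of 11 measured, had a median of -0.26, with 7 below and 3 above 0 and none beyond 2-fold. Gsn, an actin-severing protein gene, was 1.47-fold lower and Pdgfra, a growth factor receptor gene of these cells, 1.22-fold higher.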
